A study of Mus musculus with 4 samples.

Results

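The CXC chemokine genes of mouse were followed across 4 single-colour Agilent arrays of whole-brain RNA. The set was a list of 10 gene symbols, and its members were the array probes whose RefSeq accession belongs to one of those symbols. Of the 10 genes, 9 had such a probe (12 probes in all, among the 23462 genes named on the array). Cxcl11, listed as a transcribed pseudogene in the gene table of assembly GRCm38.p6, had no probe that could be named through that table and is not analysed here. There was 1 array for each of 4 groups, namely wild-type brain after phosphate-buffered saline (PBS), Nav1.8CreROSA26DTA brain after PBS, wild-type brain after lipopolysaccharide (LPS), and Nav1.8CreROSA26DTA brain after LPS. LPS, the endotoxin of Gram-negative bacteria, was given intraperitoneally at 20 mg/kg, and brains were collected 12 hours later; no time is stated for PBS. In Nav1.8CreROSA26DTA mice the promoter of the sodium channel gene Nav1.8 drives Cre, which turns on diphtheria toxin A from the ROSA26 locus and so removes Nav1.8-lineage neurons, chiefly pain-sensing neurons of the peripheral ganglia, which were not measured here. Background strain, age, sex and the number of animals behind an array are not given in the labels, so a group and an individual mouse cannot be told apart.

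Chemokines are small secreted proteins that guide white cells along gradients by binding G protein-coupled receptors, and the CXC family carries 1 residue between its first conserved cysteines. Members with a glutamate-leucine-arginine motif, such as those encoded by Cxcl1, Cxcl2 and Cxcl5, attract neutrophils through Cxcr2. Cxcl9, Cxcl10 and Cxcl11 are induced by interferons and attract activated T cells and natural killer cells through Cxcr3. Cxcl12 and Cxcl14 are expressed without inflammation in brain, where Cxcl12 acts through Cxcr4 and is scavenged by Ackr3, whereas Cxcl13 attracts B cells through Cxcr5, and Cxcl16 is a membrane-bound ligand of Cxcr6.

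Sequences upstream of 5 members are shown first, of 4 that were higher with LPS and of Cxcl12. RefSeq promoter sequences (GRCm38.p6) were in hand for 7 of the 10 genes, and the 250 bases before the listed transcription start were searched on both strands for 3 motifs. These were the interferon-stimulated response element core (GAAANNGAAA), the gamma-activated site (TTCNNNGAA) and the NF-kB consensus. Matches to the NF-kB consensus and to GAAANNGAAA are in capitals in the lines that follow, written 5′ to 3′ on the strand of the gene.
Cxcl1 promoter, chr5:90890995-90891244, plus strand: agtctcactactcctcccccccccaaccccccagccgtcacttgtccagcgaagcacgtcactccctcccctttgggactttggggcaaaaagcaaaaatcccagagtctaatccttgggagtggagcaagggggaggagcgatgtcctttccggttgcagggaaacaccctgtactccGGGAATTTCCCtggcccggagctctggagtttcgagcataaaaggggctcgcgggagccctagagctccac
Cxcl2 promoter, chr5:90903649-90903898, plus strand: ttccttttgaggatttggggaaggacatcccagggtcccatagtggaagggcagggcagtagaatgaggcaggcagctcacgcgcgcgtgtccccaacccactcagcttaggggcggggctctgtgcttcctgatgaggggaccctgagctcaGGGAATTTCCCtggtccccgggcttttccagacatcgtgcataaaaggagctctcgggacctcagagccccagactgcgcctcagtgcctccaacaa
Cxcl10 promoter, chr5:92348890-92349139, minus strand: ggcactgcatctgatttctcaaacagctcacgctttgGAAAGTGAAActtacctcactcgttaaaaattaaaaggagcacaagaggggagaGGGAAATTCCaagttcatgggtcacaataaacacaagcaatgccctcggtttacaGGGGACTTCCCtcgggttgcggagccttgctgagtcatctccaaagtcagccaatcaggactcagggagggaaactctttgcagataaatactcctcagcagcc
Cxcl9 promoter, chr5:92328080-92328329, minus strand: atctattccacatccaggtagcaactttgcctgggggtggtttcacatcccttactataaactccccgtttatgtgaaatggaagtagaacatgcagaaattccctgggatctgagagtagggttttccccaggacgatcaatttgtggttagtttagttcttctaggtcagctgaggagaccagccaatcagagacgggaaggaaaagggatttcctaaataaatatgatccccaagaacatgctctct
Cxcl12 promoter, chr6:117168285-117168534, plus strand: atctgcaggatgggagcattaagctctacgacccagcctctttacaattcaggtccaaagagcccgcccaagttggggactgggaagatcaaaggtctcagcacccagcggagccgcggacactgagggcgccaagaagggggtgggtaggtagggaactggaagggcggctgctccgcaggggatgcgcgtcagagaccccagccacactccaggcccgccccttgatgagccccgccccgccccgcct
The NF-kB consensus matched in Cxcl1, 71 to 61 bases before the start, and in Cxcl2, 97 to 87 bases before it, in each case as overlapping matches on both strands. In Cxcl10 it matched 159 to 150 bases and again 104 to 94 bases before the start, and GAAANNGAAA matched 213 to 204 bases before it. The windows of Cxcl9, Cxcl12 and Cxcl13 held no match to any of the 3 motifs. That of Cxcl14 held a GAAANNGAAA match 172 to 163 bases before the start and the only TTCNNNGAA match, 191 to 183 bases before it. Of 32817 promoter windows of the same length, 7.25% held the NF-kB consensus, 2.97% GAAANNGAAA and 7.01% TTCNNNGAA. A match describes the letters and is not a measured binding site.

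With LPS, 5 of the 7 CXC chemokine genes that could be fitted rose (Cxcl1, Cxcl5, Cxcl9, Cxcl10 and Cxcl16), 1 fell (Cxcl12) and Cxcl14 was not called. Among all 17132 genes tested, 5.62% rose (963) and 4.54% fell (777). The split over all genes moved with the scaling, to 963 against 1292 with the array median, 935 against 430 with cyclic loess and 1043 against 433 on the authors' deposited value table. These calls come from limma, with a threshold of 0.05 on the Benjamini-Hochberg adjusted p, for LPS against PBS averaged over both genotypes, 2 arrays against 2. The median effect on the log2 scale was −0.03 over all genes tested, 1.87 over the 7 members and 0.84 over the 4 members measured on all 4 arrays. A gene entered the fit if its spot was well above background, by the scanner software's own mark, on at least 2 of the 4 arrays. This admitted Cxcl1 and Cxcl9 through their LPS arrays alone, so their calls, and their part in the median of the 7, are no independent support, and it left out Cxcl2 and Cxcl13. Without the Nav1.8CreROSA26DTA LPS array the calls of Cxcl5, Cxcl16 and Cxcl12 ended (effects of 1.29, 1.76 and −0.36). The second probe of Cxcl12 moved the other way, and the mean over its probes was not called (−0.14, adjusted p = 0.596). Of the 4 members well above background on all 4 arrays, 2 rose, against 865 of 16244 such genes. Levels are given first as the processed signal, a brightness after background subtraction, and log2 values are relative to the 75th percentile of each array. That percentile stood at 612, 514, 634 and 726 for wild-type PBS, Nav1.8CreROSA26DTA PBS, wild-type LPS and Nav1.8CreROSA26DTA LPS. An error given as ± is limma's standard error, which with 1 residual degree of freedom rests mostly on other genes. Because whole brain was used, more cells of a type and more RNA per cell cannot be told apart.

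**Figure D1:**
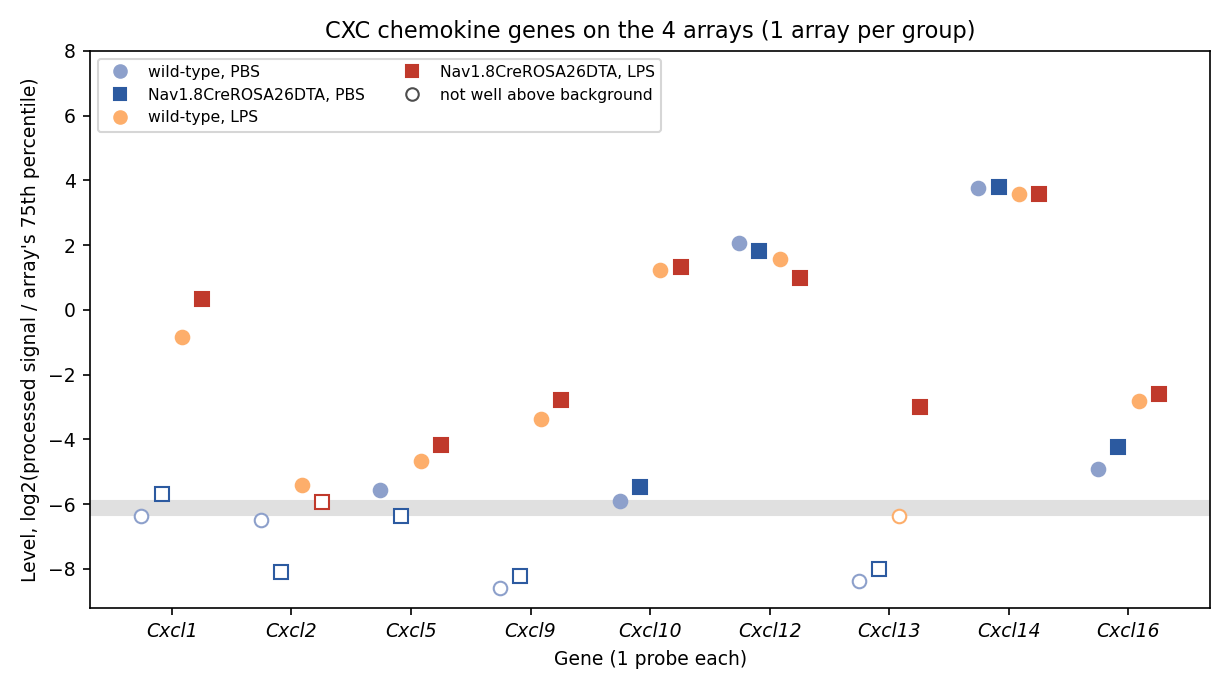
Level of 9 CXC chemokine genes on each of the 4 arrays (y axis, log2 of the processed signal over the array's 75th percentile; x axis, gene). Circles are wild-type and squares Nav1.8CreROSA26DTA, blue is PBS and orange or red is LPS, open symbols are spots not well above background, and the grey band spans the lowest well-measured signal of each array (−6.33 to −5.91). Every gene but Cxcl12 and Cxcl14 lies higher on both LPS arrays than on both PBS arrays. Of these, Cxcl1, Cxcl2, Cxcl5, Cxcl9 and Cxcl13 had spots not well above background. Heights of different genes are not comparable, because each probe has its own brightness.

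Among the neutrophil attractants, Cxcl1 had the largest response. Its processed signal was 7.38 in wild-type PBS and 9.96 in Nav1.8CreROSA26DTA PBS, neither well above background, against 358 in wild-type LPS and 926 in Nav1.8CreROSA26DTA LPS. Both LPS arrays lay far above both PBS arrays. Cxcl1, which encodes the chemokine also called KC, was therefore at least 45.5-fold higher with LPS in wild-type mice. In Nav1.8CreROSA26DTA the PBS spot lay above that array's lowest well-measured signal (8.34), so 65.9-fold is the plain ratio to a dim spot. That ratio is no lower bound, and the 54.8-fold over both genotypes rests partly on it. The fitted effect on the dim PBS signals was 5.80 ± 0.22 (adjusted p = 6.6e-07). On the LPS arrays alone, Cxcl1 was 2.26-fold higher in Nav1.8CreROSA26DTA than in wild-type.

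Cxcl5 and Cxcl2, the other neutrophil attractants on the list, stayed close to the detection limit. Cxcl5 (also called LIX in mouse) had signals of 13.0 and 24.9 in wild-type brain with PBS and LPS, and of 6.25, not well above background, and 40.3 in Nav1.8CreROSA26DTA brain. Both LPS values were above both PBS values. Its LPS effect was 1.54 ± 0.42 (adjusted p = 0.0497), with a difference of 0.89 in wild-type and a bound of at least 3.43-fold in the other genotype. That call ended without any one of the arrays, with an adjusted p of 0.0812 without wild-type PBS, 0.253 without Nav1.8CreROSA26DTA PBS, 0.146 without wild-type LPS and 0.429 without Nav1.8CreROSA26DTA LPS. With normexp background correction it was 0.14 (adjusted p = 0.742). Cxcl2 (MIP-2) had signals of 6.76, 1.87, 14.9 and 11.9 in wild-type PBS, Nav1.8CreROSA26DTA PBS, wild-type LPS and Nav1.8CreROSA26DTA LPS. Only the wild-type LPS spot was well above background, with an error of 2.81 by the scanner software's estimate against 2.88 for the Nav1.8CreROSA26DTA LPS spot. Cxcl2 was at least 1.89-fold higher with LPS in wild-type, and no fold can be given in Nav1.8CreROSA26DTA.

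The interferon-inducible members rose strongly in both genotypes. The probe of Cxcl10 (IP-10), unlike that of Cxcl9, was well above background on every array. Its signal was 10.2 in wild-type PBS and 11.5 in Nav1.8CreROSA26DTA PBS, against 1499 in wild-type LPS and 1809 in Nav1.8CreROSA26DTA LPS. The groups were far apart, and the genotypes lay close together within each injection. Cxcl10 rose by 6.97 ± 0.17 (adjusted p = 5.7e-08), a 126-fold difference, with 7.15 in wild-type and 6.80 in Nav1.8CreROSA26DTA. It ranked 3 from the highest response among 16494 genes measured on both wild-type arrays, and also 3 among 16530 in Nav1.8CreROSA26DTA.

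Cxcl9 (MIG), like Cxcl10, is among the 7 listed genes on chromosome 5. Its signal was 1.58 and 1.71 on the PBS arrays of wild-type and Nav1.8CreROSA26DTA, neither well above background, and 61.7 and 106 on their LPS arrays. It was thus at least 8.41-fold higher with LPS, with bounds of 7.85-fold in wild-type mice and 9.0-fold in the other genotype. The fitted effect on the dim signals was 5.35 ± 0.42 (adjusted p = 4.9e-05) and is larger than the bound, since both PBS spots lay below the lowest well-measured signal. With normexp, which adds an offset of 50 to each signal, the fitted effects were 4.34 for Cxcl10, 2.81 for Cxcl1, 1.11 for Cxcl9 and 0.70 for Cxcl16, and all 4 were still called.

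**Figure D2:**
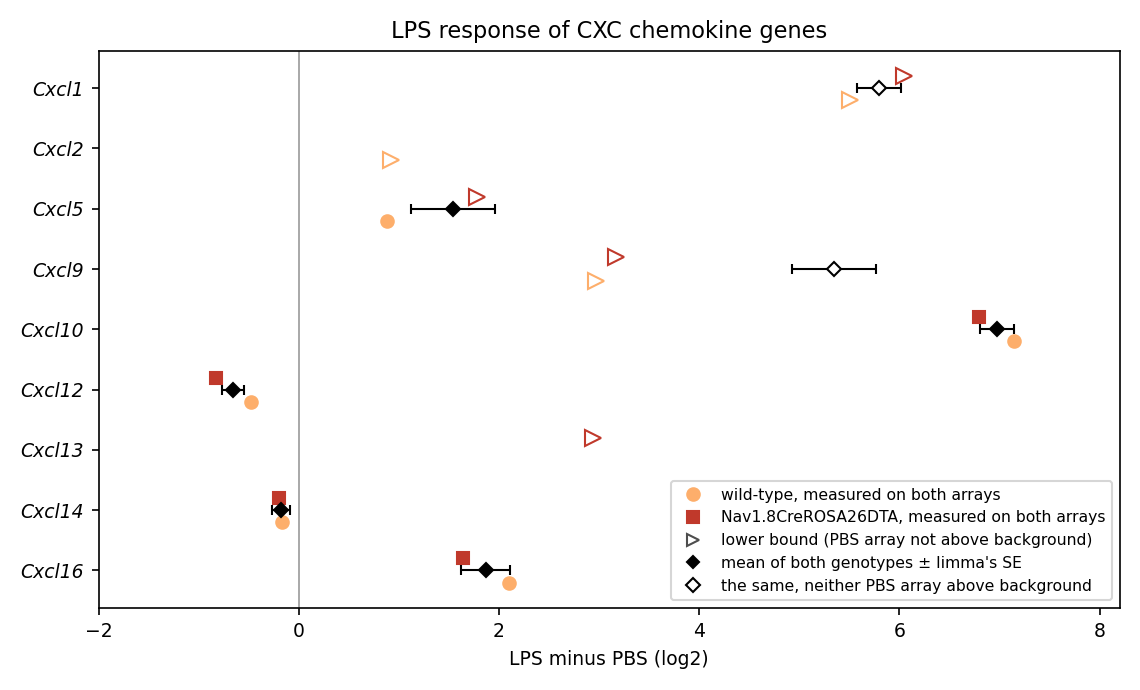
LPS minus PBS (x axis, log2) for each of the 9 genes. Circles (wild-type) and squares (Nav1.8CreROSA26DTA) are differences between 2 arrays, open triangles are lower bounds where the PBS spot was not well above background, and diamonds are the mean over genotypes with limma's standard error, open where neither PBS array measured the gene. For Cxcl1 in Nav1.8CreROSA26DTA the triangle is the plain ratio to a dim PBS spot and no lower bound. Cxcl10 lies near 7 in both genotypes, and Cxcl12 lies below 0 in both.

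Cxcl16, whose protein is a membrane-anchored chemokine and scavenger receptor, rose by a smaller amount on each of its 2 probes. The probe taken for the gene had signals of 20.3 and 27.3 on the PBS arrays and of 89.7 and 120 on the LPS arrays of wild-type and Nav1.8CreROSA26DTA. The other probe, of the same accession, had signals of 18.7 and 15.7 with PBS and of 86.6 and 170 with LPS. On both probes each LPS value was above each PBS value. The effect was 1.87 ± 0.24 (adjusted p = 0.00122) for the first, and 2.55 ± 0.26 (adjusted p = 7e-05) for the second when every probe was fitted on its own. The wild-type responses were close on both probes (2.10 and 2.16), while the Nav1.8CreROSA26DTA responses were 1.64 and 2.94. The probes thus disagreed on which genotype responded more. Without the Nav1.8CreROSA26DTA LPS array the call for the first probe ended (1.76, adjusted p = 0.0841).

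Cxcl12, the constitutive ligand also called SDF-1, was the 1 member that fell, and its 2 probes moved in opposite directions. The probe taken for the gene, designed on transcript NM_001012477, had signals of 2545 and 1811 on the PBS arrays and of 1887 and 1444 on the LPS arrays of wild-type and Nav1.8CreROSA26DTA. Relative to each array's 75th percentile both LPS arrays lay below both PBS arrays (1.57 and 0.99 against 2.06 and 1.82). The effect was −0.65 ± 0.11 (adjusted p = 0.00552), −0.48 in wild-type and −0.82 in Nav1.8CreROSA26DTA. The second probe, designed on transcript NM_021704 of the same gene, had signals of 219 and 304 with PBS and of 361 and 452 with LPS. Its differences were 0.67 in wild-type and 0.08 in Nav1.8CreROSA26DTA, with a mean of 0.38 ± 0.15 that was not called (adjusted p = 0.165). The log2 ratio of the second probe to the first was −3.54 and −2.58 on the PBS arrays and −2.39 and −1.68 on the LPS arrays, so it was higher with LPS in each genotype. Which of the 3 listed Cxcl12 transcripts each probe detects was not tested.

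The call for Cxcl12 depended on the choice of probe and was lost in some other fits. Among the fits with 1 array left out, it held only without wild-type LPS (effect of −0.94). With the mean over both probes it was −0.14 ± 0.13 (adjusted p = 0.596). It also ended without the intensity trend in limma's variance estimate (adjusted p = 0.151). With 1 array left out, the fit sets 1 array against 2 with no term for genotype. In that fit the call ended without wild-type PBS (−0.53, adjusted p = 0.318), without Nav1.8CreROSA26DTA PBS (−0.77, adjusted p = 0.217) and without Nav1.8CreROSA26DTA LPS (−0.36, adjusted p = 0.411). Markers of the endothelium, a source of Cxcl12 in brain, had a median LPS effect of −0.26 over 6 fitted genes, with 1 that rose and 3 that fell, and their part in the Cxcl12 result was not tested.

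**Figure D3:**
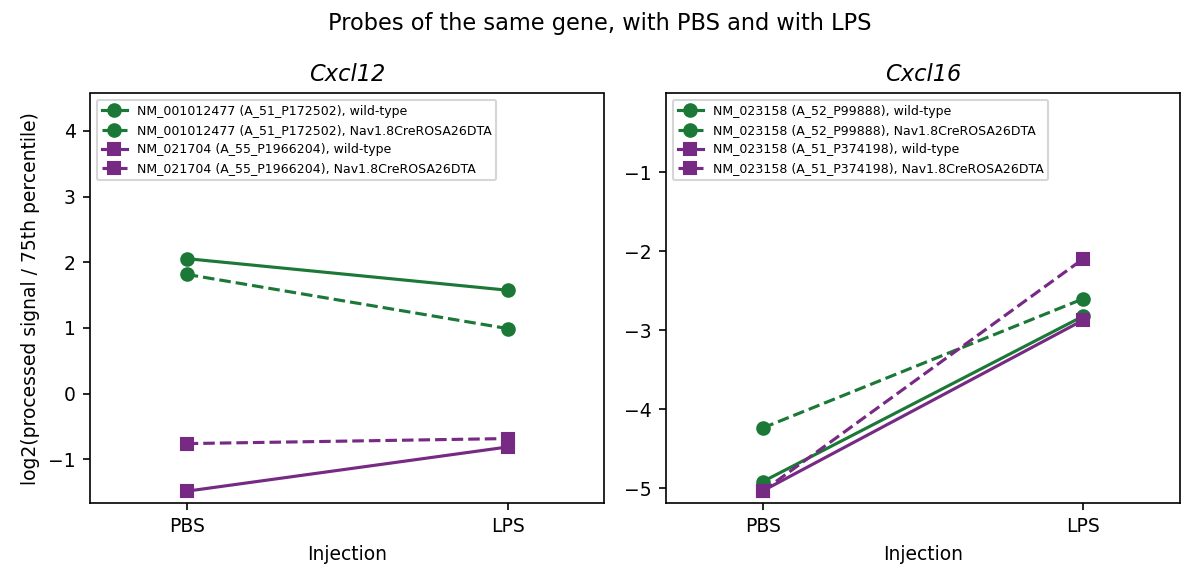
Levels of the 2 probes of Cxcl12 (left) and of Cxcl16 (right) with PBS and LPS (y axis, log2 of the processed signal over the array's 75th percentile; solid lines wild-type, dashed lines Nav1.8CreROSA26DTA; each point is 1 array). The Cxcl12 lines slope in opposite directions for the 2 probes, and every Cxcl16 line slopes upward.

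Cxcl14, made in brain by subsets of inhibitory neurons among other cells, was nearly level. Its signal was 8244 and 7085 on the PBS arrays and 7618 and 8722 on the LPS arrays of wild-type and Nav1.8CreROSA26DTA. On the scaled values the 4 arrays spanned 3.59 to 3.78. The LPS effect was −0.18 ± 0.09 with a 95% interval of −0.38 to 0.02 (adjusted p = 0.26). A second probe, for transcript XM_006517307, was well above background on wild-type PBS only, with a signal of 13.3.

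Cxcl13, the B-cell attractant, was measured on 1 array alone. Its signal was 90.5 in Nav1.8CreROSA26DTA LPS, against 7.69 in wild-type LPS, 1.85 in wild-type PBS and 1.99 in Nav1.8CreROSA26DTA PBS, none of the last 3 well above background. In Nav1.8CreROSA26DTA it was at least 7.69-fold higher with LPS than with PBS. Between the LPS arrays it was at least 7.48-fold higher in Nav1.8CreROSA26DTA than in wild-type. In wild-type no fold can be given, as neither spot was well above background. Among B-cell markers Ms4a1 was well above background on no array, and Cd79b had scaled levels of −5.01, −3.21, −5.30 and −3.79 in wild-type PBS, Nav1.8CreROSA26DTA PBS, wild-type LPS and Nav1.8CreROSA26DTA LPS. The summed signal of the 4 B-cell markers, in units of the array's 75th percentile, was 0.0648, 0.178, 0.0613 and 0.116 in the same order. Their part in the Cxcl13 result was not tested.

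Between genotypes, averaged over both injections, limma called 0 of the 7 fitted members, against 0.409% of all genes tested, and 2 members had an unadjusted p under 0.05. These were Cxcl1, at 0.93 ± 0.22 (adjusted p = 0.128), and Cxcl12, at −0.41 ± 0.11 (adjusted p = 0.181). The Cxcl1 value averages in a PBS difference between spots that were both not well above background. For Cxcl10 the genotype difference was 0.25 with a 95% interval of −0.14 to 0.64, and for Cxcl14 it was 0.02 with an interval of −0.18 to 0.21. Without the filter on dim spots 3 members were called, Cxcl1 (adjusted p = 0.0133), Cxcl12 (−0.41, adjusted p = 0.00252) and Cxcl13 (1.86 ± 0.47, adjusted p = 0.00354). With normexp Cxcl1 and Cxcl12 were called. Both settings also called more genes in all, 654 higher and 304 lower of 23461 without the filter, and 258 and 125 of 17132 with normexp. Without the filter, limma's standard errors rest wholly on other genes. The Cxcl13 value rests on 3 spots of 4 that were not well above background. The 2 Cxcl12 probes disagreed in sign here as well, since the second was higher in Nav1.8CreROSA26DTA by 0.72 with PBS and by 0.13 with LPS.

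Within pairs of arrays there is no replicate, so genes were counted by size. With LPS, 2 of the 5 members measured on both wild-type arrays were at least 2-fold higher (3.41% of all measured genes), and 2 of the 4 measured on both Nav1.8CreROSA26DTA arrays (3.1%). Both times these were Cxcl10 and Cxcl16. Between genotypes 0 of 4 members were at least 2-fold apart with PBS (1.62% of genes), and 1 of 7 with LPS, Cxcl1 (1.2%). The difference of the LPS responses, Nav1.8CreROSA26DTA minus wild-type, was −0.35 for Cxcl10, −0.34 for Cxcl12, −0.03 for Cxcl14 and −0.46 for Cxcl16 on the probes taken for these genes. These differences were not tested. The 2 Cxcl16 probes differed in its sign, at −0.46 and 0.78.

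The receptors of these ligands were mostly dim. Of 10 receptor genes, 4 were fitted, 1 rose and 0 fell, against 5.62% and 4.54% of all genes tested. Cxcr1, Cxcr2, Cxcr5 and Ackr4 were well above background on no array. Ackr1, the scavenging receptor of venules and red cells that binds many inflammatory chemokines, had signals of 3896, 4011, 6508 and 9086 in wild-type PBS, Nav1.8CreROSA26DTA PBS, wild-type LPS and Nav1.8CreROSA26DTA LPS. Both LPS values were above both PBS values. Ackr1 rose by 0.69 ± 0.09 (adjusted p = 0.00117), and its second probe gave 0.73 ± 0.09. The call for Ackr1 ended without wild-type PBS (adjusted p = 0.135), Nav1.8CreROSA26DTA PBS (0.0509) or Nav1.8CreROSA26DTA LPS (0.16), and without the intensity trend (0.0891).

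Ackr3, which removes Cxcl12, was at 0.44 ± 0.13 and did not pass (adjusted p = 0.0624), but passed on the authors' deposited value table (0.51, adjusted p = 0.0467), without the filter on dim spots (adjusted p = 0.00443) and with normexp (0.40, adjusted p = 0.0148). Ackr2, a scavenger chiefly of CC chemokines, was at 0.29 ± 0.11 (adjusted p = 0.141), or 0.34 with normexp (adjusted p = 0.0306). Cxcr6, the receptor of Cxcl16, was at −0.05 ± 0.35 (adjusted p = 0.959). Cxcr4, the receptor of Cxcl12, was well above background in Nav1.8CreROSA26DTA LPS only (signal 17.9), and Cxcr3, that of Cxcl9 and Cxcl10, in wild-type PBS only (10.7). Other CXC ligand genes did not move past the threshold. Cxcl3, Cxcl15 and Cxcl17 were well above background on no array, while the platelet genes Pf4 and Ppbp were at −0.44 ± 0.27 (adjusted p = 0.377) and −0.40 ± 0.40 (adjusted p = 0.61).

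Genes known to regulate chemokine transcripts were examined next. Their lists were chosen with earlier results of these data known. Over all genes tested, 5.62% rose and 4.54% fell. Of 10 genes of NF-kB signalling and mRNA decay 6 rose and 0 fell (median 1.11), among them the NF-kB coactivator Bcl3 (3.60 ± 0.16), the atypical inhibitor Nfkbiz (1.72 ± 0.22), the subunit gene Nfkb2 (1.68 ± 0.15) and Zfp36, whose protein destabilises cytokine mRNAs (1.13 ± 0.18). The subunits Rela (0.15 ± 0.09), Rel (−0.015 ± 0.34) and Nfkb1 (0.26 ± 0.20) did not pass. Nor did the RNase gene Zc3h12a, at 1.95 ± 0.58 (adjusted p = 0.0706). Of 11 fitted interferon signalling genes 5 rose and 0 fell (median 0.27). These included the transcription factors Irf7 (4.14 ± 0.22), Irf9 (1.75 ± 0.14), Irf1 (1.25 ± 0.12) and Stat2 (0.79 ± 0.10), while the receptor and kinase genes did not pass. Among the interferons themselves, Ifng was well above background on no array and Ifnb1 on wild-type LPS alone. Of the 3 enzymes that cleave CXC ligands, Adam10, Adam17 and Dpp4, none passed (−0.01 ± 0.10, 0.27 ± 0.16 and 0.12 ± 0.31). The calls of Nfkbiz and Zfp36 ended without wild-type PBS (adjusted p = 0.0657 and 0.0577), the former also without Nav1.8CreROSA26DTA PBS (0.078) and the latter without either LPS array (0.0878 and 0.0958). Without the intensity trend, those of Nfkbiz (0.0869), Zfp36 (0.0716) and Irf1 (0.0541) ended, and 3 genes of the NF-kB list and 2 of the interferon list rose. The call of Stat2 ended with the mean over its probes (0.43, adjusted p = 0.139), without the trend (0.0725), without Nav1.8CreROSA26DTA PBS (0.0928) and without wild-type LPS (0.0853). Without wild-type PBS, 3 genes of the NF-kB list rose. Without Nav1.8CreROSA26DTA PBS or without wild-type LPS, 3 genes of the interferon list rose.

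**Figure D4:**
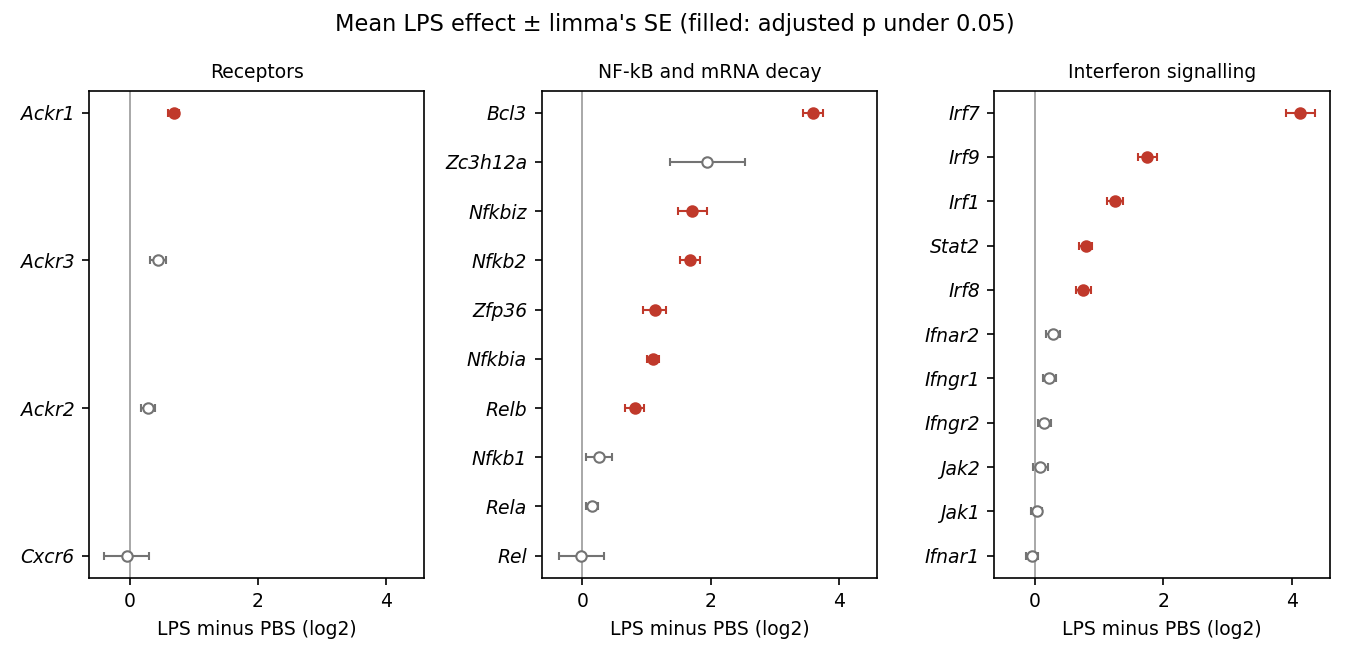
LPS minus PBS averaged over genotypes (x axis, log2, with limma's standard error as bars) for the fitted genes of 3 lists, namely CXC receptors (left), NF-kB and mRNA decay genes (middle) and interferon signalling genes (right). Filled symbols passed the adjusted p threshold, which 1 of 4, 6 of 10 and 5 of 11 genes did. Of all genes tested, 5.62% rose and 4.54% fell.

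The genes whose pattern over the 4 arrays lay nearest to that of a member were found by Euclidean distance between log2 values centred on each gene's own mean, among 16244 genes measured on all 4 arrays. For Cxcl10 these were the CC chemokine gene Ccl5 (distance 0.91), the iron-trapping protein gene Lcn2 (1.71) and the interferon-inducible GTPase gene Gbp2 (1.87). For Cxcl16 they were the apoptosis inhibitor gene Birc3 (0.11), Aire (0.15) and the interferon-inducible gene Ifi35 (0.15). This is a likeness over 4 arrays only, and the second Cxcl16 probe lay further from the first (0.93) than these 3 genes did.

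The arrays carried the markers of brain, with all 6 neuronal, 6 astrocytic, 6 microglial and 4 oligodendrocyte marker genes well above background on each array. The 4 arrays shared 1 slide and 1 scan and differed in their place on it, which cannot be told apart from the group. Markers of blood cells differed between arrays. For the counts that follow, 5.62% of all genes tested rose with LPS and 4.54% fell. Of 10 neutrophil markers 5 rose with LPS, 0 fell and 5 did not pass, though 1 rose without wild-type PBS, without wild-type LPS or without Nav1.8CreROSA26DTA LPS. Ly6g rose by 2.64 ± 0.18, and S100a8 by 3.07 ± 0.62, with scaled levels of −4.82, −0.53, 0.06 and 0.72 in wild-type PBS, Nav1.8CreROSA26DTA PBS, wild-type LPS and Nav1.8CreROSA26DTA LPS. Without wild-type PBS, S100a8 stood at 0.93 (adjusted p = 0.16), and without wild-type LPS or Nav1.8CreROSA26DTA LPS it also did not pass (adjusted p = 0.283 and 0.518). The summed signal of the neutrophil list, in units of the array's 75th percentile, was 67.1, 53.3, 66.7 and 71.6 in that order. Most of that sum was 1 gene, Csf3r, at 0.13 ± 0.12 with LPS (adjusted p = 0.599), while S100a8, S100a9, Retnlg, Ngp, Camp and Mpo were each higher in Nav1.8CreROSA26DTA PBS than in wild-type PBS. All 3 fitted monocyte markers of 4 rose with LPS, Ly6c2 by 1.72 ± 0.10, Chil3 by 2.30 ± 0.42 and Plac8, dim in wild-type PBS, by 3.94 ± 0.64. Ccr2, well above background on 1 array and not fitted, was lower with LPS, at −6.23, −4.85, −8.03 and −8.10 in the order used for S100a8. The summed signal of that list was 6.63, 7.13, 24.4 and 21.0, most of it Ly6c2. Chil3 and Plac8 were higher in Nav1.8CreROSA26DTA PBS (−1.32 and −4.13) than in wild-type PBS (−4.67 and −8.44). The sum over the 2 red-cell markers with a probe was 39.2, 285, 95.2 and 151. Of 9 T-cell and natural killer cell markers, Cd3g, Cd8a and Ncr1 were well above background on no array, and 0 of the 6 fitted rose or fell. The part of these cells in the chemokine results was not tested.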

How the data were processed

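Total RNA of whole mouse brain was hybridised to 4 single-colour (Cy3) Agilent arrays. The deposited processed signal is an intensity that was background-subtracted and spatially detrended, per the file headers, which name Agilent Feature Extraction 12.0.3.1 (11.0.1.1 per the submitters' processing notes). The authors' deposited value table holds an intensity equal to that signal times 1 factor per array, to within 0.1% for all but 1 value; the basis of the factors was not found.

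For this report, control spots and 81 to 96 outlier spots an array were left out, the processed signal was divided by the array's 75th percentile, and log2 was averaged over the spots of a probe. No spot was saturated (0 on each array). Accessions were matched without versions to a GRCm38.p6 gene table, used for names and chromosomes, which named 33767 of 56605 probes. For each gene the probe measured on most arrays was kept, then the brightest. limma 3.58.1 (R 4.3.3; lmFit and eBayes, trend on) was fitted across 17132 genes with terms for genotype and agent, two-sided; p-values were adjusted by Benjamini-Hochberg and called under 0.05. The 1 residual degree of freedom comes from the gap between the genotypes' responses, and 7.99 were added from other genes. P-values therefore rest on that gap and on those of other genes. They measure no spread between replicate arrays or between animals, as each group had 1 array. The script was tested on simulated data.

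For a gene dim on an array, "at least N-fold" sets the bright mean against that array's lowest well-measured signal, or the gene's own if higher. Where its own was higher, as for Cxcl1 in Nav1.8CreROSA26DTA PBS, the fold is a plain ratio to a dim spot. The members and the lists were chosen with earlier results of these data known. In addition, 1 gene planned for the interferon list is not reported here. The rule named all members and receptors, the 4 largest effects past the threshold in other lists, and, for members measured on all 4 arrays with a 2-fold effect, the 3 most alike genes; other list genes and markers were named after their values were seen. Alternatives covered background correction, scaling, the value table, filters, probe choice, the variance trend and each array left out. The number of arrays limits the precision; probes printed 10 times had a median SD of 0.0418 to 0.0456 (log2) within an array.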

Additional observations from a re-analysis of the deposited data

Results flagged for a closer look

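For 3 members the sign of the genotype difference was not the same with PBS and with LPS, though some of these differences were too small to give a direction. For Cxcl14 the genotype difference (Nav1.8CreROSA26DTA minus wild-type, log2) was 0.03 with PBS and −0.0022 with LPS, a change of −0.0346, and both values are below the median SD between spots of a probe on an array (0.0418 to 0.0456). For the second Cxcl16 probe it was −0.0034 with PBS, also smaller than that SD, and 0.776 with LPS, a change of 0.7793. The probe taken for the gene was higher in Nav1.8CreROSA26DTA with both. With PBS the wild-type level of Cxcl5 exceeded the other by at least 1.31-fold, where the Nav1.8CreROSA26DTA spot was not well above background, while with LPS it was 1.42-fold higher in Nav1.8CreROSA26DTA, a change of at least 0.891 on the log2 scale. None of these changes was tested, since each group had 1 array.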

How the results depend on the processing

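The LPS effects of the 7 fitted members kept their direction under every alternative run (0 reversed), with 73 values on the same side of the threshold and 15 no longer past it. Cxcl10 passed the threshold under each of 13 alternatives. Cxcl1 and Cxcl9 passed under 12, but entered through their LPS arrays alone and could not be fitted among genes measured on all 4 arrays. The number that rose was 5, against 2 among genes measured on all 4 arrays, and 3 to 4 with 1 array left out. The number that fell was 1, against 0 with the mean over probes, 0 without the intensity trend, and 0 to 1 with 1 array left out. Cxcl5 also missed the threshold with cyclic loess (adjusted p = 0.0794), the value table (0.0614), the mean over probes (0.0611) and no intensity trend (0.175).

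Between genotypes 0 members were called, against 2 with normexp and 3 without the filter on dim spots. Members at least 2-fold higher with LPS numbered 2 in wild-type (1 with normexp, 6 without the filter) and 2 in Nav1.8CreROSA26DTA (1 with normexp, 7 without the filter). Members 2-fold apart between genotypes numbered 0 with PBS (1 without the filter) and 1 with LPS (2 without the filter, 0 among genes measured on all 4 arrays). Genotype effects that turned sign were those of Cxcl5 with normexp (0.0915), of Cxcl12 with the mean over probes (0.0073), and of Cxcl14 with quantile scaling (−0.0134), cyclic loess (−0.0124), the value table (−0.0218) and the mean over probes (−0.2475). The LPS effect of Cxcr6 turned to 0.024 on the value table and 0.1069 with the mean over probes. Apart from the filters and the choice of probes, which change what is measured, the cause was not tested.

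With 1 array left out, each fit sets 1 array against 2 with a term for the tested factor alone, so genotype effects carry the LPS effect. They spanned −2.0928 to 3.9493 for Cxcl1, −1.2488 to 0.9431 for Cxcl5, −2.2507 to 3.2034 for Cxcl9, −3.3239 to 3.8247 for Cxcl10, −0.8244 to 0.0006 for Cxcl12, −0.0839 to 0.1142 for Cxcl14 and −0.5989 to 1.4977 for Cxcl16. LPS effects spanned −0.3555 to 0.2643 for Cxcr6, −0.9149 to 0.0334 for Pf4 and −1.3064 to 0.5053 for Ppbp.

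Over all genes the number that rose was 963, against 1583 without the filter, 382 without the trend and 370 to 514 with 1 array left out. The number that fell was 777, against 1567, 48 and 70 to 187 in the same settings, 1292 with the array median, 430 with cyclic loess, 433 on the value table and 499 with the mean over probes. The number called between genotypes was 52 higher and 18 lower, against 258 and 125 with normexp, 166 and 31 with the array median, 133 and 40 with quantile scaling, 15 and 4 with cyclic loess, 20 and 8 on the value table, 654 and 304 without the filter and 11 and 1 with the mean over probes. By limma it was 0 without the trend (1476 genes at an unadjusted p under 0.05) and 0 with any 1 array left out (239 to 790). No paired analysis was possible because each group is 1 array and the labels give no replicate numbers. The planned normexp correction of the mean spot signal was run on the median spot signal, the one used here, a choice made after seeing the data. Signals near background limit Cxcl2, Cxcl5 and Cxcl13, and the PBS side of Cxcl1, Cxcl9 and Cxcl10. The PBS signals of Cxcl16 were also low, at 15.7 to 27.3 over its 2 probes.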
